A study of Mus musculus with 18 samples.

Results

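Transcripts of 10 genes that build, load and carry peptides on MHC class I molecules were compared between 3 dendritic cell populations of the mouse spleen. The genes were H2-K1, H2-D1, B2m, Tap1, Tap2, Tapbp, Psmb8, Psmb9, H2-M3 and H2-T23, and every Affymetrix probe set whose platform annotation carried 1 of these symbols was taken, on the 3 array types U74A, U74B and U74C. This gave 21 probe sets for 9 of the 10 genes, out of 36701 probe sets that were not controls. H2-T23 had no probe set of its own, and 4 further probe sets joined a member with other genes and are described apart. Of the 21 probe sets, 19 reached the minimum signal for testing, a signal of 60 on at least 2 of the 6 arrays of a type. The 2 that did not were 1 of the 3 for Tap1 (162278_r_at) and 1 of the 4 for Tapbp (170521_r_at).

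MHC class I molecules show fragments of a cell's own proteins to CD8 T cells and are read by inhibitory receptors of natural killer cells. The proteasome cuts proteins into peptides, the TAP transporter moves the peptides into the endoplasmic reticulum, and tapasin holds the empty heavy chain with its beta2-microglobulin partner next to the transporter until a peptide is bound. Interferons raise many genes of this route, and dendritic cells use it to prime CD8 T cells.

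The tested populations were interferon-producing killer dendritic cells (IKDC), described as cells with features of both natural killer and dendritic cells, and plasmacytoid dendritic cells (PDC), known for type I interferon production. Conventional dendritic cells (cDC) were the population the submitters named as control. Each population had 2 separately prepared samples, and each of the 6 samples was hybridised to all 3 array types, 18 arrays in total. No treatment or genetic change is named in the labels. The mouse strain, the age of the animals, the sorting gates and whether the samples came from different animals are not given in the sources used here, so the p-values measure the spread between these samples, which may be technical.

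The labels were set against marker genes on U74A. The summed signal of 6 natural killer genes was 10061 and 9657 in IKDC, 1670 and 1343 in PDC and 779 and 827 in cDC. That of 3 PDC genes was 666 and 551 in IKDC, 4426 and 6581 in PDC and 638 and 602 in cDC, and that of 7 cDC genes, with H2-Ab1 and Cd74 among them, was 3403 and 3088 in IKDC, 11035 and 13094 in PDC and 27124 and 26952 in cDC. The PDC and cDC lists were highest in the populations they are named for, and the natural killer list was highest in IKDC. No list of genes particular to IKDC was taken, so these sums do not tell IKDC from natural killer cells. Markers of other cell types were taken too. The sum of 2 erythroid genes was 12658 and 14787 in IKDC, 21657 and 8657 in PDC and 547 and 1469 in cDC, and that of 6 macrophage genes was 360 and 372 in IKDC, 703 and 464 in PDC and 2843 and 4004 in cDC. The sum of 4 B cell genes was 1746 and 625 in IKDC, 1046 and 441 in PDC and 632 and 407 in cDC, and that of 2 T cell genes 582 and 253 in IKDC, 117 and 13.5 in PDC and 41.7 and 7.6 in cDC. Neither T cell gene on U74A reached 60 in both samples of PDC or of cDC, and the macrophage genes C1qa and Adgre1 were under 60 in all IKDC and PDC samples. The part of these cells in the results below was not tested. In such samples, fewer cells of a type and less RNA per cell cannot be told apart.

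Of the 10 genes, 9 lie on chromosome 17, in and near the MHC, and B2m lies on chromosome 2. In the gene order Psmb9, Tap1, Psmb8 and Tap2 are 4 consecutive genes. Promoter windows of 300 bases, 250 before and 50 after the annotated start (RefSeq, GRCm38.p6), were matched for 9 of the 10 genes, all but Tap2, with the window that starts further upstream taken for H2-K1, which had 2. They were searched on both strands for 5 motifs known from class I promoters, GATTCCCC (the NF-kappaB core of enhancer A), TTTCACTTC (within the class I interferon consensus sequence), GAAANNGAA (a core of the interferon-stimulated response element), TGACG (the core of a cyclic AMP response element) and CCAAT (a box bound by NF-Y), none of which overlapped another in the stretches printed. The stretches below are those in which the classical heavy-chain genes resemble each other, the stretch of B2m with its interferon motif for comparison, and the upstream sequences of H2-M3, Psmb9 and Tap1, which passed in IKDC against cDC. Capitals mark motif matches on either strand.
H2-K1, chr17:34000429-34000458, minus strand: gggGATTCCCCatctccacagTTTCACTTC
H2-D1, chr17:35262923-35262952, plus strand: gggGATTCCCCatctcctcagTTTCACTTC
B2m, chr2:122147544-122147573, plus strand: acatGAAACTGAAaatgggaaagtcccttt
H2-M3, chr17:37269984-37270233, plus strand: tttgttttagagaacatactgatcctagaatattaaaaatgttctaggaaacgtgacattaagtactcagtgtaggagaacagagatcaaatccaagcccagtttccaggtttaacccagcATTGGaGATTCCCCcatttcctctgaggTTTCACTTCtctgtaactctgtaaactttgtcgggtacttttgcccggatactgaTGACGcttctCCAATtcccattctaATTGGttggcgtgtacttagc
Psmb9 and Tap1, chr17:34187331-34187555, plus strand (the direction of Tap1): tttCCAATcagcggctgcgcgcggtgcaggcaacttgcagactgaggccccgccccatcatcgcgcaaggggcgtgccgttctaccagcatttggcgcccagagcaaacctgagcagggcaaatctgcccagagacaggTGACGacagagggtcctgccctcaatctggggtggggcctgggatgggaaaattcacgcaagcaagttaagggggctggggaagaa

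The stretches of H2-K1 and H2-D1 differed at 1 of 30 bases. H2-M3 carried the same pair of motifs in the same order, followed towards the start by TGACG and CCAAT. TTTCACTTC was in 3 of the 9 member windows, those of H2-K1, H2-D1 and H2-M3, and in 0.505% of all 32851 promoter windows. GATTCCCC was in the same 3 windows and in 0.84% of all windows. GAAANNGAA was in the windows of B2m and H2-T23 and in 8.56% of all windows. TGACG (6 of 9, against 20.8% of all windows) and CCAAT (8 of 9, against 37.4%) are short and common. Psmb9 and Tap1 are read in opposite directions from a shared stretch and their windows have 275 bases in common, with 1 TGACG and 1 CCAAT. The Psmb8 window held none of the 5 motifs. A match describes letters in a window and is not evidence of binding.

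**Figure D1:**
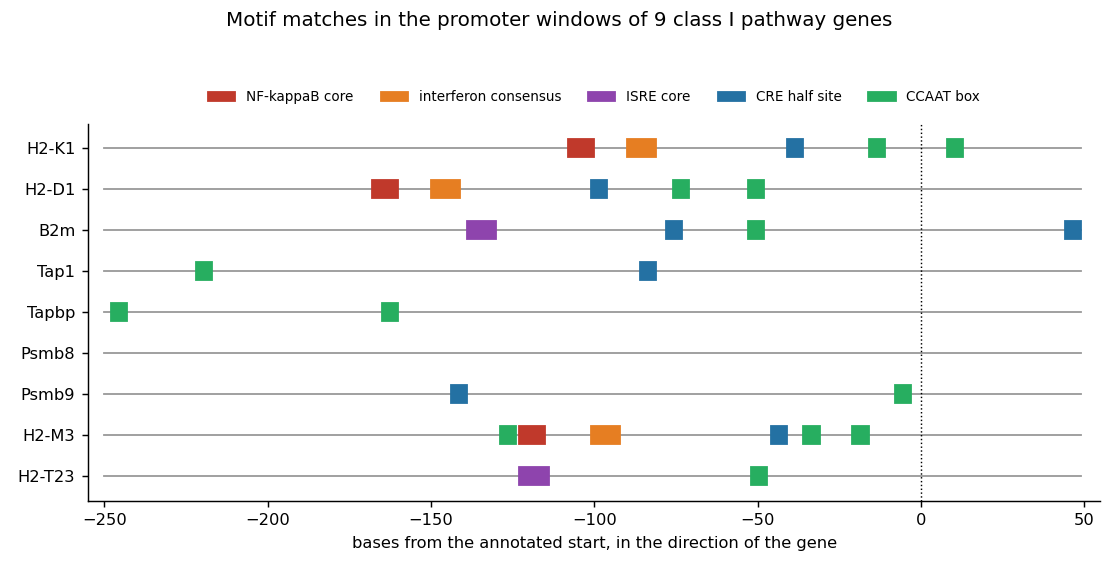
Positions of motif matches in the promoter windows of 9 genes, in bases from the annotated start (dotted line) and in the direction of each gene. H2-K1, H2-D1 and H2-M3 carry the NF-kappaB core and the interferon consensus in the same order, B2m and H2-T23 the ISRE core, and Psmb8 none.

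The signals below are those the authors deposited, on a linear scale, and differences are of log2(signal + 16) with limma's standard error. Levels of different probe sets are not comparable, since each has its own probes. Statements that samples overlap or not describe 2 samples per population. The share of all tested probe sets without overlap was not counted, so such an order is not a test result.

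No probe set of the classical heavy chains, which hold the peptide, passed in any comparison. H2-K1 (93120_f_at) had signals of 9094 and 7468 in IKDC, 7944 and 7045 in PDC and 7508 and 7784 in cDC. The samples of the 3 populations overlapped, and the difference of IKDC minus cDC was 0.11 ± 0.27 (adjusted p = 0.878), with a 95% interval of -0.49 to 0.70. The second H2-K1 probe set (97125_f_at) had 1618 and 1272 in IKDC, 1306 and 1210 in PDC and 943 and 1183 in cDC. Both samples of IKDC and of PDC were above both of cDC there, and neither difference passed (0.44 ± 0.27, adjusted p = 0.429, for IKDC minus cDC and 0.25 ± 0.27, adjusted p = 0.772, for PDC minus cDC). The third (97700_at) had 273 and 1613 in IKDC, 585 and 552 in PDC and 1311 and 626 in cDC. The IKDC samples lay far apart and on either side of the other 4, and both PDC samples were below both of cDC.

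H2-D1 (97540_f_at) had signals of 8685 and 7349 in IKDC, 7790 and 6746 in PDC and 3789 and 7552 in cDC. The first cDC sample was low, the second lay within the range of the other populations, and the IKDC minus cDC difference was 0.58 ± 0.34 (adjusted p = 0.403), with an interval of -0.17 to 1.32. A further H2-D1 probe set (101886_f_at) had 5382 and 4224 in IKDC, 3739 and 5225 in PDC and 3585 and 2883 in cDC. Both cDC samples were below the other 4 on it, and the IKDC minus cDC difference was 0.57 ± 0.29 (adjusted p = 0.328). On 97541_f_at the signals were 3416 and 2842 in IKDC, 2268 and 2792 in PDC and 2933 and 2941 in cDC. There the cDC samples lay between the IKDC samples, and IKDC minus cDC was 0.09 ± 0.26 (adjusted p = 0.905). The letter f in a probe set's name marks probes that match several members of a sequence family, so these 5 probe sets cannot be assigned to 1 heavy chain with certainty, and how well they match the class I alleles of these mice was not tested. Other probe sets below also carry such a letter, 102731_g_at of H2-M3 and 162104_f_at of Tapbp among them, and their specificity was not tested either.

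B2m, the light chain that every class I heavy chain needs, had signals of 6256 and 6294 in IKDC, 5248 and 4535 in PDC and 3416 and 4745 in cDC. Both IKDC samples were above the other 4, while those of PDC and cDC overlapped. The IKDC minus cDC difference was 0.64 ± 0.28, with an interval of 0.03 to 1.25, and did not pass after adjustment over all probe sets (unadjusted p = 0.0421, adjusted p = 0.241). PDC minus cDC was 0.28 ± 0.28 (adjusted p = 0.749) and IKDC minus PDC 0.36 ± 0.28 (adjusted p = 0.636).

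Tap1, a subunit of the peptide transporter, passed in IKDC against cDC. Its probe set 103035_at had signals of 450 and 462 in IKDC, 559 and 703 in PDC and 1066 and 1258 in cDC. The populations did not overlap, with IKDC lowest, PDC between and cDC highest. Tap1 was lower in IKDC than in cDC by a log2 difference of -1.31 ± 0.27 (adjusted p = 0.014), a 2.49-fold difference. PDC minus cDC was -0.87 ± 0.27 (unadjusted p = 0.00757, adjusted p = 0.125) and IKDC minus PDC -0.45 ± 0.27 (adjusted p = 0.514), so neighbouring populations in this order did not differ past the threshold. The call in IKDC against cDC was lost without any 1 of the IKDC or cDC samples (adjusted p 0.0567 to 0.122) and with arrays centred on their medians (adjusted p = 0.0805). Of the other Tap1 probe sets, 107886_at on U74B lay between 21.3 and 79.9 and 162278_r_at on U74A between 26.5 and 98.4 over all samples, near the minimum signal of 60.

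Tap2, the partner of Tap1 in the transporter, had signals on U74C (165667_r_at) of 325 and 315 in IKDC, 368 and 307 in PDC and 367 and 563 in cDC. Both cDC samples were above both of IKDC by this probe set, and IKDC minus cDC was -0.49 ± 0.35 (adjusted p = 0.512). On U74A (102873_at) it had 310 and 356 in IKDC, 313 and 258 in PDC and 270 and 416 in cDC, all overlapping. IKDC minus cDC was -0.01 ± 0.30 there (adjusted p = 0.988), with an interval of -0.68 to 0.65. Whether the difference of Tap1 exceeded that of Tap2 was not tested.

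Tapbp encodes tapasin, which bridges the heavy chain to the transporter. Its probe set 100154_at had signals of 901 and 905 in IKDC, 1402 and 1568 in PDC and 1213 and 1803 in cDC. Both IKDC samples were below the other 4, and those of PDC lay within the range of cDC. The differences were -0.70 ± 0.28 for IKDC minus cDC (unadjusted p = 0.0282, adjusted p = 0.196) and -0.71 ± 0.28 for IKDC minus PDC (unadjusted p = 0.0276, adjusted p = 0.25), while PDC minus cDC was 0.00 ± 0.28. The second Tapbp probe set (162104_f_at) had 329 and 382 in IKDC, 884 and 379 in PDC and 553 and 513 in cDC, and the PDC samples differed from each other by more than the populations did. IKDC minus PDC on it passed only without the second PDC sample (-1.28, adjusted p = 0.0497), against -0.69 ± 0.36 (adjusted p = 0.438) with all samples. The third (102689_at) lay between 167 and 252 in all samples, and the fourth (170521_r_at, U74C) between 3.1 and 36.7, under the minimum in every sample.

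The immunoproteasome subunits Psmb8 and Psmb9 replace constitutive catalytic subunits and change which peptides are cut. Psmb9 (93085_at), the neighbour of Tap1, had signals of 483 and 545 in IKDC, 706 and 788 in PDC and 1048 and 1178 in cDC. The populations did not overlap and stood in the same order as for Tap1. Psmb9 was lower in IKDC than in cDC by -1.09 ± 0.26 (adjusted p = 0.0319), a 2.13-fold difference. PDC minus cDC was -0.57 ± 0.26 (adjusted p = 0.34) and IKDC minus PDC -0.53 ± 0.26 (adjusted p = 0.397). This call was also lost without any 1 of the IKDC or cDC samples (adjusted p 0.109 to 0.243), with median-centred arrays (adjusted p = 0.135) and without the intensity trend in the variance (adjusted p = 0.078).

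Psmb8 (102791_at) had signals of 2544 and 1966 in IKDC, 2633 and 2800 in PDC and 2678 and 2668 in cDC. Its IKDC samples were below the other 4, 1 of them narrowly, and IKDC minus cDC was -0.26 ± 0.26 (adjusted p = 0.663), with an interval of -0.83 to 0.32. PDC minus cDC was 0.02 ± 0.26 (adjusted p = 0.985). The Psmb8 probe set on U74C (167254_at) lay between 27.6 and 156 with overlapping populations.

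H2-M3 encodes a nonclassical heavy chain that presents N-formylated peptides, as bacteria and mitochondria make them. Its probe set 102731_g_at had signals of 372 and 381 in IKDC, 819 and 757 in PDC and 1423 and 1329 in cDC. The populations did not overlap, in the order seen for Tap1 and Psmb9, and the samples of each population were close together. H2-M3 was lower in IKDC than in cDC by -1.82 ± 0.26 (adjusted p = 0.00134), a 3.54-fold difference, and this call was kept in all 16 alternatives run, with an adjusted p of at most 0.0218. It was also lower in IKDC than in PDC, by -1.03 ± 0.26 (adjusted p = 0.0438), and PDC minus cDC was -0.79 ± 0.26 (unadjusted p = 0.00981, adjusted p = 0.145). The call against PDC was lost with median-centred arrays (adjusted p = 0.137), with only these populations in the model (0.0659), without the intensity trend (0.11) and without any 1 sample of the 6 (adjusted p 0.0654 to 0.271).

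The second H2-M3 probe set (102730_at) was dimmer, with 58.9 and 56.0 in IKDC, 59.2 and 92.5 in PDC and 124 and 167 in cDC. Both IKDC samples were under 60. The geometric mean of the cDC signals was 2.4-fold this minimum, which is a lower bound for cDC over IKDC. IKDC minus cDC had an adjusted p of 0.106 on this probe set and PDC minus cDC an adjusted p of 0.311.

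H2-T23 encodes the heavy chain Qa-1, known for presenting leader peptides of other class I chains to the CD94-NKG2A receptor. It could be followed only through 98472_at, whose annotation joins it with the pseudogene H2-T-ps, so the signal cannot be assigned to either. This probe set had 419 and 366 in IKDC, 949 and 849 in PDC and 662 and 653 in cDC. The populations did not overlap and stood in another order, with PDC highest. IKDC was lower than PDC by -1.16 ± 0.26 (adjusted p = 0.0272), a call lost without any 1 IKDC or PDC sample (adjusted p 0.0531 to 0.26) and in 2 other alternatives, while IKDC minus cDC was -0.73 ± 0.26 (adjusted p = 0.153) and PDC minus cDC 0.44 ± 0.26 (adjusted p = 0.51). The family probe set 102161_f_at, annotated to 10 class I genes with H2-K1, H2-D1 and H2-T23 among them, had 3587 and 2903 in IKDC, 3818 and 3987 in PDC and 1446 and 2308 in cDC. Both cDC samples were below the other 4, and the differences were 0.82 ± 0.30 for IKDC minus cDC (adjusted p = 0.156) and 1.09 ± 0.30 for PDC minus cDC (adjusted p = 0.0765), the second of which passed in 3 of the 16 alternatives run. The remaining shared probe sets were dim, with 97174_r_at at most 119 and 95773_at, not tested, at most 41.1.

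**Figure D2:**
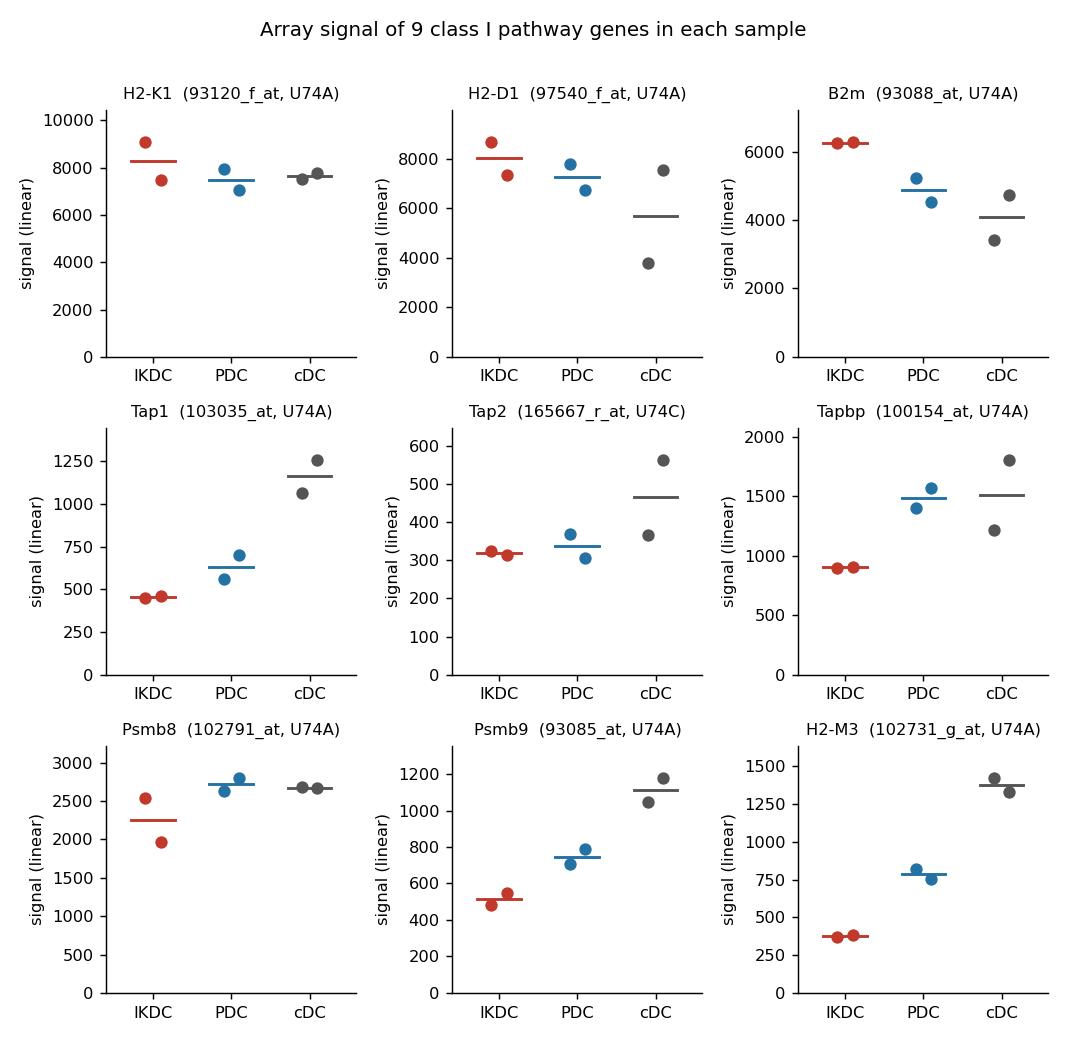
Deposited array signal (linear axis from 0) of the most strongly hybridising tested probe set of each of 9 genes, with 1 point per sample and a bar at the mean of the 2 samples. Tap1, Psmb9 and H2-M3 step up over IKDC, PDC and cDC without overlap, whereas the samples of H2-K1 overlap.

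In IKDC against cDC, 3 of the 19 tested member probe sets passed, all lower in IKDC (Tap1, Psmb9 and H2-M3). Over all 23285 tested probe sets 5.6% passed, 2.68% as higher and 2.92% as lower. An unadjusted p under 0.05 was reached by 6 of the 19, beside 18.9% of all tested probe sets. The median difference of the 19 was -0.22, with a range of -1.82 to 0.64, and 12 of them were negative, beside a median of -0.01 over all tested probe sets. With each gene represented by its tested probe set of highest mean signal, 3 of 9 genes were lower, their median was -0.49, and 7.57% of all 12193 genes were called, 3.5% as higher and 4.07% as lower. The largest positive differences were those of B2m and H2-D1 (97540_f_at and 101886_f_at), and none of them passed. Centring arrays on their medians moved the median of all IKDC minus cDC differences from -0.01 to 0.11, and left H2-M3 as the only member called. The summed macrophage signals (360 and 372 in IKDC, 703 and 464 in PDC, 2843 and 4004 in cDC) and those of the cDC markers stood in the same order of populations as Tap1, Psmb9 and H2-M3, and their part in these results was not tested. Such sums follow their strongest genes, and not every marker kept this order. The cDC marker Itgax was higher in IKDC than in PDC, and the IKDC and PDC samples of Batf3 and of C1qc overlapped.

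In PDC against cDC no member probe set passed in limma's test, while 3.65% of all probe sets did, 1.73% as higher and 1.92% as lower. By gene 0 of 9 passed, beside 4.99% of all genes, 2.25% as higher and 2.75% as lower. An unadjusted p under 0.05 was reached by 3 of the 19, those of Tap1 and both of H2-M3, all lower in PDC, beside 14.9% of all tested probe sets. The median of the 19 differences was 0.00, with a range of -0.87 to 0.46, and the median over all probe sets was -0.01. The intervals of H2-K1 (93120_f_at, -0.62 to 0.56), Tapbp (100154_at, -0.61 to 0.62) and Psmb8 (102791_at, -0.56 to 0.60) leave room for differences of about this size in either direction.

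In IKDC against PDC, 1 of 19 member probe sets passed, H2-M3 as lower in IKDC, beside 4.45% of all probe sets, 2.06% as higher and 2.39% as lower. By gene it was 1 of 9, beside 5.88% of all genes, 2.71% as higher and 3.17% as lower. The unadjusted p was under 0.05 for 2 of the 19, H2-M3 and Tapbp, beside 14.5% of all tested probe sets. The median difference was -0.07, with a range of -1.03 to 0.36, beside -0.02 over all probe sets. The comparisons with cDC share the cDC samples, and those of IKDC share the IKDC samples, so they are not independent of each other.

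**Figure D3:**
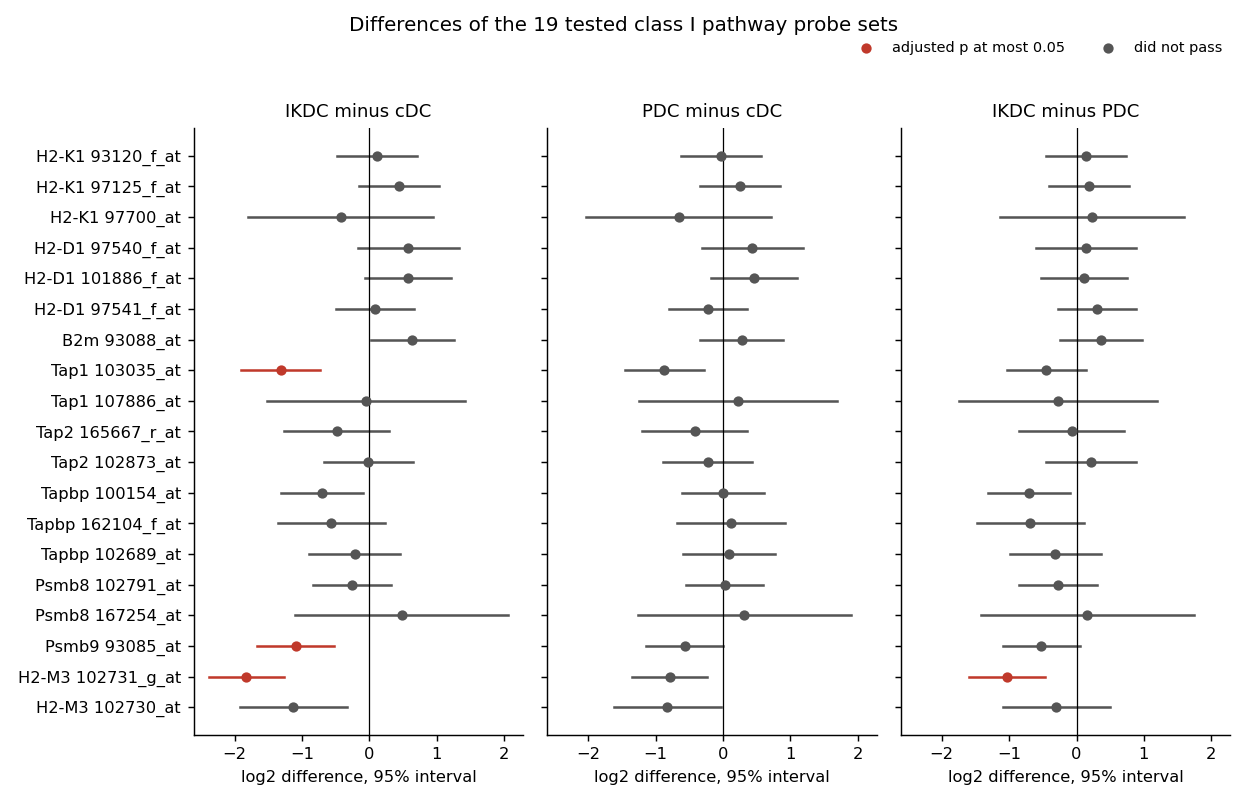
Log2 differences of the 19 tested probe sets with 95% intervals from limma, for IKDC minus cDC, PDC minus cDC and IKDC minus PDC, with differences at an adjusted p of at most 0.05 in red. The red points are Tap1, Psmb9 and H2-M3 in the first panel and H2-M3 in the third, and the intervals of H2-K1 and H2-D1 cross 0 in every panel.

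Among 25 other class I heavy chains and class I-like genes, 12 were tested. In IKDC against cDC 2 were lower and 1 higher. Over all genes 7.57% were called in IKDC against cDC, 4.99% in PDC against cDC and 5.88% in IKDC against PDC. These shares belong beside the counts of this list and of those below. Hfe, the class I-like protein of iron sensing, had signals of 45.1 and 50.3 in IKDC, 89.2 and 42.1 in PDC and 582 and 550 in cDC. It was near the minimum in IKDC and PDC and high in cDC, and the call in IKDC against cDC had an adjusted p of 0.000285. The geometric mean of the cDC signals was 9.44-fold the minimum, which is a lower bound for cDC over IKDC. PDC minus cDC was -2.90 ± 0.35 (adjusted p = 0.000784). H2-M2, a nonclassical chain, had 66.1 and 94.8 in IKDC, 134 and 123 in PDC and 324 and 362 in cDC, and was lower in IKDC (-1.91 ± 0.31, adjusted p = 0.00336) and in PDC (-1.31 ± 0.31, adjusted p = 0.0394) than in cDC. H2-Q4, read by a family probe set (99378_f_at), was higher in IKDC, with 2682 and 2290, against 996 and 943 in cDC (1.34 ± 0.35, adjusted p = 0.0477). Cd1d1, which presents lipids to natural killer T cells, was lower in PDC, with 183 and 274, against 700 and 771 in cDC (-1.65 ± 0.29, adjusted p = 0.0083). None of the 12 passed in IKDC against PDC. There the members with the highest mean signal, H2-Q4 and H2-Bl, differed by 0.57 (adjusted p = 0.523) and -0.34 (adjusted p = 0.667). Both Hfe calls were kept in all 16 alternatives run. The call of H2-M2 in IKDC was lost without the first IKDC sample (adjusted p = 0.0591) and its call in PDC without any 1 sample (0.0682 to 0.234), that of H2-Q4 without any 1 IKDC or cDC sample (0.158 to 0.251), and that of Cd1d1 without either cDC sample (0.0572 and 0.0812). Counting other processing too, H2-M2 kept its calls in 15 of 16 alternatives in IKDC and 5 in PDC, H2-Q4 in 8 and Cd1d1 in 14. The macrophage genes named above were also highest in cDC, and their part was not tested.

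Of 15 partners of loading and trimming in the endoplasmic reticulum, 11 were tested. None passed in IKDC against cDC, where the chaperones with the highest mean signal, Hspa5 and Hsp90b1, differed by -0.22 (adjusted p = 0.756) and 0.32 (adjusted p = 0.594). In PDC against cDC 2 were higher: Hsp90b1, the chaperone gp96, with 2981 and 3257 in PDC against 1248 and 1212 in cDC (1.33 ± 0.28, adjusted p = 0.0218), and Sec61a1, a channel of protein import, with 1756 and 1854 in PDC against 804 and 881 in cDC (1.09 ± 0.25, adjusted p = 0.0383, the only call among its 2 tested probe sets). Without any 1 PDC or cDC sample both calls were lost (adjusted p 0.065 to 0.116 for Hsp90b1 and 0.085 to 0.182 for Sec61a1), and that of Sec61a1 also without either IKDC sample. Of all 16 alternatives Hsp90b1 passed in 11 and Sec61a1 in 7. The peptide-trimming enzyme Erap1 differed by -0.61 in IKDC (adjusted p = 0.437) and by -0.60 in PDC (adjusted p = 0.556) from cDC. None of the 11 passed in IKDC against PDC. There 10 of the 11 differences were negative, with a median of -0.24, beside a median of 0.005 over all genes. The share of negative differences over all genes was not counted. Signs near 0 depended on the scaling, since Hspa5 moved from -0.09 to 0.04 with median-centred arrays.

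Of 9 other proteasome genes 8 were tested, and the only call was in IKDC against PDC. Pomp, which helps assemble the proteasome, had 384 and 306 in IKDC against 681 and 803 in PDC (-1.07 ± 0.27, adjusted p = 0.0473). The call was lost without any 1 of the 6 samples (adjusted p 0.0723 to 0.389), without a filter (0.0513), with median-centred arrays (0.176), with only these populations in the model (0.0703) and without the intensity trend (0.111). In cDC it had 661 and 663, above both IKDC samples, and IKDC minus cDC was -0.92 (adjusted p = 0.0795). Psmb10, the third immunoproteasome subunit, had 1266 and 1030 in IKDC, 1873 and 1438 in PDC and 1307 and 1219 in cDC. IKDC and cDC overlapped, and IKDC minus cDC was -0.14 (adjusted p = 0.833). The constitutive subunit Psmb5 differed by -0.19 in both comparisons with cDC (adjusted p = 0.821 for IKDC and 0.874 for PDC). Of 7 cytosolic peptidases 3 were tested and none passed in any comparison. The members with the highest mean signal were Blmh and Npepps, which differed by 0.04 (adjusted p = 0.96) and -0.06 (adjusted p = 0.937) in IKDC minus cDC.

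Of 25 regulators of class I genes and interferon signalling, 21 were tested. Irf8, an interferon regulatory factor of dendritic cell development, had 1668 and 1580 in IKDC, 8841 and 8504 in PDC and 3710 and 3269 in cDC. It was lower in IKDC than in cDC (-1.09 ± 0.26, adjusted p = 0.03), higher in PDC than in cDC (1.31 ± 0.26, adjusted p = 0.0157) and lower in IKDC than in PDC (-2.41 ± 0.26, adjusted p = 0.000247). Jak1, a kinase of interferon receptors, was higher in IKDC, with 2320 and 3410 on U74C, than in PDC, with 1073 and 567, and in cDC, with 953 and 779 (1.83, adjusted p = 0.011, and 1.69, adjusted p = 0.0153). The receptor chain Ifngr2 was lower in IKDC, with 1765 and 1561, than in cDC, with 2974 and 3691 (adjusted p = 0.0457). Ifnar2 was higher in PDC, with 808 and 1753, than in cDC, with 227 and 474 (1.81 ± 0.42, adjusted p = 0.0371, the only call among its 2 tested probe sets). Stat2, a transducer of type I interferon signals, had 310 and 368 in IKDC against 841 and 1250 in PDC (-1.56 ± 0.27, adjusted p = 0.00878, the only call among its 2 tested probe sets). The call of Irf8 in IKDC against PDC was kept in all 16 alternatives, whereas its calls against cDC were lost without any 1 sample of the populations compared (adjusted p 0.0764 to 0.211 in IKDC and 0.0546 to 0.0925 in PDC). Jak1 lost its calls without the second IKDC sample (0.159 against cDC, 0.139 against PDC), without either cDC sample (0.0683 and 0.113, against cDC) and without the second PDC sample (0.0771, against PDC). Ifngr2 lost its call without any 1 IKDC or cDC sample (0.117 to 0.263) or the second PDC sample (0.0556), Ifnar2 without the first cDC (0.277) or second PDC sample (0.207), and Stat2 without the first IKDC (0.08) or second PDC sample (0.0513). Counting other processing too, the calls were kept in 5 of 16 alternatives for Ifngr2, 11 for Ifnar2, 13 for Stat2, 12 (against cDC) and 13 (against PDC) for Jak1, and 9 (IKDC) and 11 (PDC) for Irf8 against cDC. Nlrc5, the transactivator of class I genes, differed by -0.43 in IKDC (adjusted p = 0.555) and -0.96 in PDC (adjusted p = 0.211) from cDC.

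The class II route was taken beside the class I route. Of 11 class II genes 10 were lower in IKDC than in cDC, with a median difference of -2.79, against 3 of 9 and a median of -0.49 for the class I members. Cd74, the invariant chain, had 1111 and 950 in IKDC, 4945 and 5372 in PDC and 12644 and 11873 in cDC (IKDC minus cDC -3.56 ± 0.26, adjusted p = 3.08e-05). In PDC against cDC 6 of the 11 were lower, with a median of -1.25, and in IKDC against PDC 8 of the 11, with a median of -2.31. Over all genes 4.07% were lower in IKDC than in cDC, 2.75% in PDC than in cDC and 3.17% in IKDC than in PDC. Each gene counts by its tested probe set of highest mean signal. Further tested probe sets of H2-Aa, H2-Eb1 and Ciita did not all pass where that probe set did. Alternatives were run on 4 of the 6 calls in PDC against cDC, of which Cd74 was kept in 10 of 16 (adjusted p at most 0.106), H2-DMb1 in 9 (0.226), H2-Eb1 in 11 (0.112) and H2-Ob in 15 (0.0543). H2-Ab1 and Cd74 are also among the cDC markers above, and the difference between the lists was not tested.

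**Figure D4:**
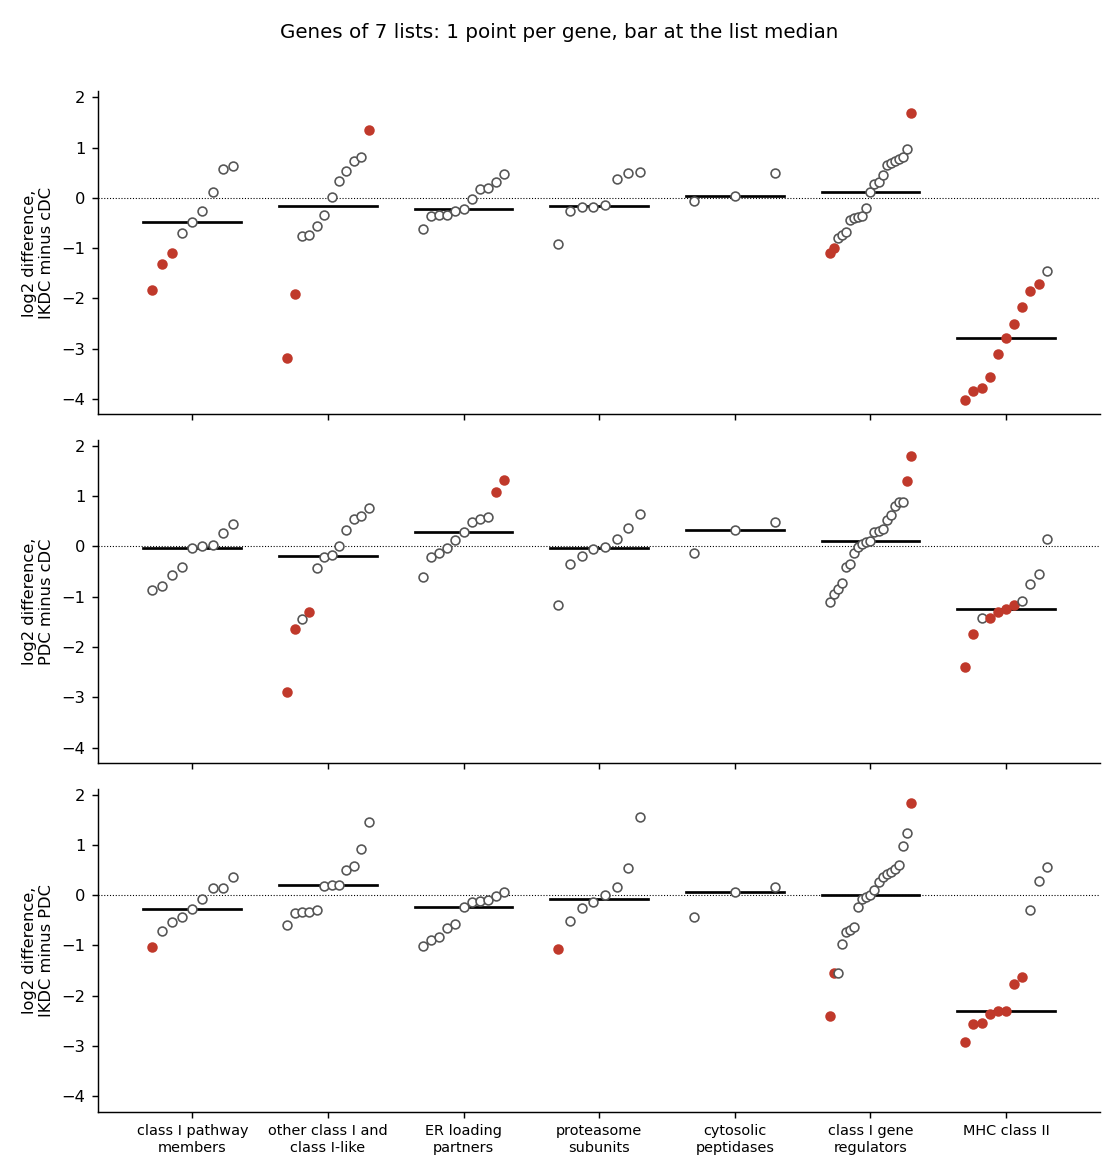
Log2 difference of each tested gene (1 point per gene, represented by its probe set of highest mean signal) in 7 gene lists, with a bar at the list median, for IKDC minus cDC, PDC minus cDC and IKDC minus PDC. Filled red points passed at an adjusted p of at most 0.05. The class II medians lie at -2.79, -1.25 and -2.31, and those of the class I members at -0.49, -0.03 and -0.28.

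Among the members, profiles over the 6 samples were most alike for Tap1 and Psmb9 (Pearson r = 0.98), Psmb9 and H2-M3 (0.97) and Tap1 and H2-M3 (0.93), all on U74A. B2m ran against H2-M3 (r = -0.88) and with H2-D1 (r = 0.88). Among 3937 other named probe sets of U74A with a range of at least 1 log2 unit, those most like H2-M3 were Cst3 (r = 0.993), Cd74 (r = 0.992) and Pip4k2a (r = 0.99). Those most like Tap1 were Marcks (r = 0.993), Ctage5 (r = 0.993) and Plin2 (r = 0.991), and those most like Psmb9 were Cfp (r = 0.995), Anpep (r = 0.994) and Ebi3 (r = 0.994). For Tapbp they were Usp18 (r = 0.996), Myd88 (r = 0.983) and Ssr1 (r = 0.977), and for B2m Vti1b (r = 0.99), Ncl (r = 0.988) and Cast (r = 0.985). The genes most like H2-D1 were Cpeb2 (r = 0.986), Hspa14 (r = 0.983) and Lonp1 (r = 0.978), and the most like Psmb8 was Inpp5a (r = 0.978). H2-K1, which varied little, had Lrpprc (r = 0.955), Ms4a1 (r = 0.948) and Scd1 (r = 0.923) as the most alike. Ms4a1 is also on the B cell list above, through another of its probe sets, and the part of B cells was not tested. The mean of the members' standardised profiles was most like Trpm1 (r = 0.953), Nedd4 (r = 0.949) and Car14 (r = 0.931). These are descriptions over 6 samples in 3 clusters that share their arrays, and the best match among so many probe sets is high whatever the profile.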

How the data were processed

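Per the labels, total RNA of spleen cells was amplified in a pair of rounds and hybridised to Affymetrix arrays. The authors deposited linear signal intensities from GCOS 1.1.1 (MAS 5 per the submitters' processing notes), with every array brought to a target of 150. Scaling assumes like total signal in all samples. Detection calls were not used. Median signals were 51.7 to 87.2, 47.2% to 60.5% of probe sets reached 60, and the Gapdh 3' to 5' ratio was 2.97 to 6.0. On each array type this ratio was higher in both cDC samples than in both IKDC samples. On U74A it was 3.34 and 3.59 in IKDC, 6.0 and 3.19 in PDC and 4.74 and 4.13 in cDC. Its part in the differences of IKDC and cDC, those of Tap1, Psmb9 and H2-M3 among them, was not tested. Precision is limited by the few arrays.

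Log2(signal + 16), which understates changes of low genes, was fitted per array type with limma 3.58.1 in R 4.3.3 (lmFit, eBayes with an intensity trend, all 3 populations in 1 model, 3 residual degrees of freedom) and tested on simulated data. P-values were Benjamini-Hochberg adjusted over 23285 probe sets, threshold 0.05. Where both samples of a population were under 60, the fold is a bound. Symbols came from the platform annotation, updated by gene identifier. The rule named all members, and from each other list up to 4 genes passing per comparison with the smallest adjusted p, or the 2 brightest where none passed. Of these, examples are given; Nlrc5 and Erap1 fell outside the rule and were chosen after their values were seen. Members, lists and rule were chosen with earlier results of these data known. Scaling, pseudocount, filter, model, replicate block and leaving out samples were varied.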

Additional observations from a re-analysis of the deposited data

How the results depend on the processing

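Under the alternatives, 1530 values of single probe sets kept both their sign and their side of the threshold, 129 lost a call and 7 gained one. Those that turned sign, 53 values, were counted apart whatever their call. With arrays centred on their medians, 1 member probe set was called in IKDC versus cDC (3 in the fit reported) and 0 in IKDC versus PDC (1), which was also 0 with only the 2 groups compared and without an intensity trend, and by gene 0 with the mean of a gene's probe sets on U74A. Without 1 sample each, the count of all called probe sets ranged from 593 (without IKDC replicate 1; 598 without IKDC replicate 2, 617 and 610 without cDC replicates 1 and 2) to 1656 for IKDC versus cDC, from 327 (without cDC replicate 2; 349 without cDC replicate 1) to 719 for PDC versus cDC, and from 493 (without IKDC replicate 2; 506 without IKDC replicate 1) to 869 for IKDC versus PDC. The member counts ranged from 1 to 3, stayed at 0, and ranged from 0 to 1 (1 only without PDC replicate 2). The member probe set counted in IKDC versus PDC without PDC replicate 2 was 162104_f_at of Tapbp (-1.28), not 102731_g_at of H2-M3 (-1.09). A lone sample is assumed to vary like the other groups. The counts of all called probe sets fell whenever a sample of a compared population was left out. For IKDC versus cDC they rose without either PDC sample, and the reason was not tested.

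Deviations of same-numbered samples correlated at -0.086 to 0.236 over pairs of populations and array types, with the highest value for PDC and cDC on U74A. Whether same-numbered samples belong together was not settled by this, and the fit reported does not pair them. With a replicate block 1650, 1055 and 1223 probe sets were called (1305, 849 and 1036 without), and 3, 0 and 1 member probe sets.

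Signs turned for values near 0 or with wide spread, and the cause was not tested. With quantile normalization, IKDC minus cDC became -0.023 for H2-D1 97541_f_at, 0.002 for Tap1 107886_at and -0.018 for Blmh, and PDC minus cDC -0.10 for Psmb8 102791_at. With median centring, IKDC minus cDC became 0.17 for Tap2 102873_at, 0.04 for Psmb10 and 0.12 for Npepps, PDC minus cDC 0.02 for H2-K1 93120_f_at, and IKDC minus PDC 0.04 for Hspa5. Leaving out 1 sample gave these ranges that cross 0.
For IKDC minus cDC they were -0.034 to 0.25 for H2-K1 93120_f_at, -1.68 to 0.82 for H2-K1 97700_at, -0.047 to 0.22 for H2-D1 97541_f_at, -0.69 to 0.59 for Tap1 107886_at, -0.31 to 0.28 for Tap2 102873_at, -0.49 to 0.057 for Tapbp 102689_at, -0.51 to 1.47 for Psmb8 167254_at, -0.56 to 0.11 for Hspa5 101955_at, -0.29 to 0.004 for Psmb10 101486_at, -0.62 to 0.25 for Psmb5 109821_f_at, -0.045 to 0.12 for Blmh 94842_at and -0.23 to 0.10 for Npepps 96259_at. For PDC minus cDC they were -0.12 to 0.055 for H2-K1 93120_f_at, -0.059 to 0.93 for H2-D1 97540_f_at, -0.41 to 0.86 for Tap1 107886_at, -0.53 to 0.068 for Tap2 102873_at, -0.28 to 0.29 for Tapbp 100154_at, -0.47 to 0.71 for Tapbp 162104_f_at, -0.18 to 0.37 for Tapbp 102689_at, -0.021 to 0.067 for Psmb8 102791_at, -0.67 to 1.31 for Psmb8 167254_at and -0.63 to 0.24 for Psmb5 109821_f_at. For IKDC minus PDC they were -0.003 to 0.28 for H2-K1 93120_f_at, -1.02 to 1.48 for H2-K1 97700_at, -0.13 to 0.35 for H2-D1 101886_f_at, -0.78 to 0.23 for Tap1 107886_at, -0.20 to 0.056 for Tap2 165667_r_at, -0.23 to 0.55 for Psmb8 167254_at, -0.42 to 0.24 for Hspa5 101955_at and -0.11 to 0.22 for Npepps 96259_at.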
